A study of Mus musculus with 8 samples.

Results

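The genes described here are 10 early response genes, taken by symbol from the table of raw counts: Egr1, Egr2 and Egr3, Nr4a1, Nr4a2 and Nr4a3, Arc, Ier2, Ier3 and Zfp36. All 10 were found among the 22244 genes of the table, and all 10 had enough counts to be tested, as did 14192 genes in all. RNA came from the right cranial lobe of the lung of adult male C57BL/6J mice, a common inbred strain. The compared groups were 4 mice injected with naphthalene and 4 mice labelled as having had no treatment, all wild type, with 1 stranded total RNA library per mouse. Naphthalene is an aromatic hydrocarbon that the cytochrome P450 enzymes of mouse club cells turn into toxic products, and it serves as a model of airway injury. With dose, vehicle and sampling time not given in the sources used here, an effect of injection or vehicle cannot be told apart from one of naphthalene.

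Immediate early genes are transcribed soon after a cell receives a signal, without new protein synthesis, and their RNAs decay quickly. MAP kinases drive many of them through serum response factor (SRF) and its partners, and calcium and cyclic AMP do so through CREB. In lung, Egr1 is known as a gene that responds to injury, hypoxia and stretch. A whole lobe holds many cell types, and fewer cells of a type and less RNA per cell cannot be told apart in these libraries.

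Library totals ranged from 10743842 to 16792306 counts, and levels below are CPM, counts scaled to a common library total with TMM factors. Of 1157 protein-coding symbols that RefSeq places on chromosome 1, 1144 (98.9%) were listed at 0 in all 8 libraries, against 5.78% on the other chromosomes without Y. Those genes are treated as not measured, and none of the 10 early genes lies on chromosome 1. The lung markers Sftpc, Ager and Pecam1 and the club cell markers Scgb1a1 and Cyp2f2 were present in every library, and the 3 club cell markers examined all fell after naphthalene. Control 3 stood apart from the other controls in the summed level of 5 tested neutrophil markers, at 390.3 CPM against 61.8 to 93.2 CPM. Cxcr2, a neutrophil marker on chromosome 1, was at 0. The naphthalene libraries held 206 to 496 CPM of those markers. Results that rest on control 3 are given with and without it.

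Arc rose by the largest fold of the 10 genes, Egr2 rose by a smaller fold, Egr3 and Nr4a1 fell, and the other 6 did not pass the test. Thus 4 of 10 passed edgeR's quasi-likelihood test at an adjusted p of 0.05, beside 28.7% of all tested genes. By direction 2 were higher, beside 14.1% of tested genes, and 2 were lower, beside 14.6%. The groups did not overlap for 2 genes that were higher, beside 13.9% of tested genes, and for 1 that was lower, beside 14.7%. The median log2 fold change of the 10 genes was -0.11, beside 0.01 over all tested genes. The count is small and is not read as a property of the set, whose members are described one by one.

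**Figure D1:**
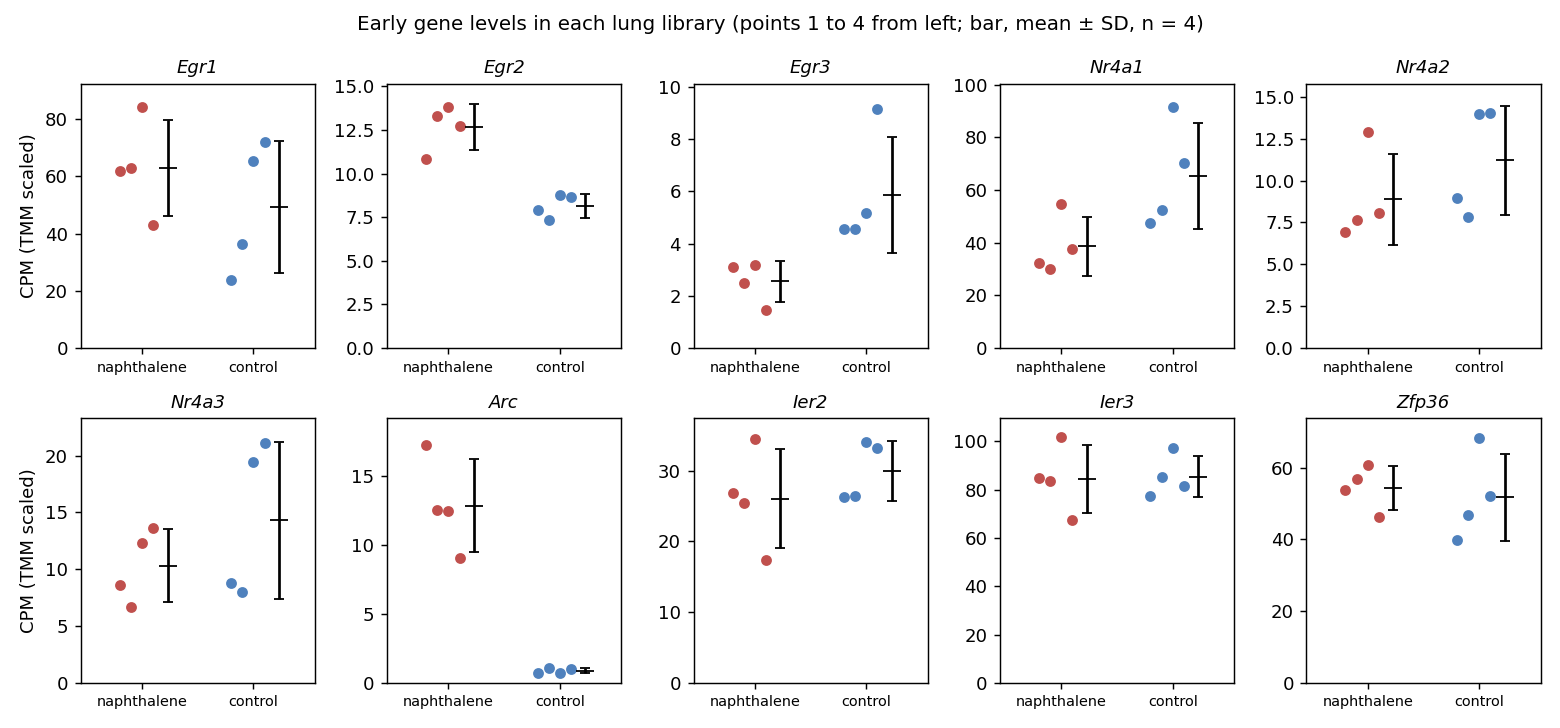
Each panel shows 1 early gene, with CPM on a linear axis from 0, naphthalene libraries 1 to 4 in red on the left and control libraries 1 to 4 in blue on the right, and bars for the mean ± SD. Arc lies between 9.07 and 17.3 CPM after naphthalene and between 0.703 and 1.09 CPM in controls, whereas the Egr1 panel shows naphthalene and control points that overlap.

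Arc encodes a cytoskeleton-associated protein that forms capsid-like particles and is best known for regulating glutamate receptors at synapses. It stood at 17.3, 12.5, 12.5 and 9.07 CPM in naphthalene libraries 1 to 4, against 0.717, 1.09, 0.703 and 1.003 CPM in control libraries 1 to 4. These rested on 99 to 290 reads per library after naphthalene and on 8 to 15 reads in controls. Every naphthalene library was above every control, and no library of either group lay near the other group. The means were 12.8 ± 3.37 CPM after naphthalene and 0.878 ± 0.197 CPM in controls (SD, n = 4 each). Its log2 fold change was 3.84 (SE 0.23, edgeR adjusted p = 8.37e-06), a fold of 14.3, which placed it at rank 23 from the top among the 14192 tested genes by log2 fold change. Of 3 neuronal markers, Syn1 and Tubb3 were tested, with summed levels of 2.93 to 4.9997 CPM after naphthalene and 2.87 to 3.77 CPM in controls, and Tubb3 passed as higher while Syn1 did not pass (log2 fold changes 2.88 and -0.61). Tubb3 rested on 1 to 8 reads per library in controls and on 14 to 37 after naphthalene. The part of these 2 markers in the Arc result was not tested.

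The Egr genes encode zinc finger transcription factors that bind GC-rich sites, and 1 of the 3 rose, 1 fell and 1 did not pass. Egr2, known for its roles in hindbrain patterning, myelination and T cell tolerance, stood at 10.8, 13.3, 13.8 and 12.7 CPM in naphthalene libraries 1 to 4, against 7.89, 7.33, 8.79 and 8.67 CPM in controls 1 to 4. The groups did not overlap, as for 28.6% of all tested genes in either direction. Egr2 was the steadiest of the 10 genes in controls, where 66.0% of tested genes had a larger SD of log2 CPM. It averaged 12.7 ± 1.30 CPM after naphthalene and 8.17 ± 0.686 CPM in controls (SD, n = 4 each), a log2 fold change of 0.63 (SE 0.10, edgeR adjusted p = 0.005165).

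Egr3, which acts in muscle spindle development and in lymphocyte tolerance, moved the other way. It stood at 3.10, 2.48, 3.16 and 1.47 CPM in naphthalene libraries 1 to 4, against 4.57, 4.57, 5.18 and 9.17 CPM in controls 1 to 4. All 4 naphthalene libraries were below all 4 controls, and control 4 was far above the other controls. Means were 2.55 ± 0.786 CPM after naphthalene and 5.87 ± 2.21 CPM in controls (SD, n = 4 each), and the log2 fold change was -1.19 (SE 0.34, edgeR adjusted p = 0.0123). Without control 4 it was -0.89 (edgeR adjusted p = 0.0396). These values rested on few reads, at 16 to 52 reads per library after naphthalene and 51 to 128 in controls. Lymphocyte markers were lower too. All 3 T cell markers fell, with summed levels of 3.34 to 5.77 CPM after naphthalene and 9.14 to 12.99 CPM in controls. All 3 B cell markers fell as well, with summed levels of 18.3 to 33.9 CPM after naphthalene and 62.5 to 90.5 CPM in controls. Of other cell types, 2 of 3 ciliated cell markers, all 3 club cell markers and 1 of 3 monocyte markers also fell. The part of these cell types in the Egr3 result was not tested.

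Egr1, the best studied member of the family and a target of SRF, did not pass. It stood at 61.8, 62.9, 84.1 and 43.1 CPM in naphthalene libraries 1 to 4, against 23.8, 36.2, 65.2 and 71.9 CPM in controls 1 to 4. Controls 3 and 4 lay within the naphthalene range, whereas controls 1 and 2 lay below it. The highest control was 3.02 times the lowest, and 1.35% of tested genes varied more than Egr1 among controls, as SD of log2 CPM. The log2 fold change was 0.35 (SE 0.42, edgeR adjusted p = 0.420).

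Promoter sequence is shown for genes that passed the test and for 1 close relative, so that the letters upstream of a gene that rose and of genes that fell or did not pass can be set side by side. RefSeq promoter entries on GRCm38.p6 were held for 6 of the 10 genes, namely Egr2 (5 starts), Nr4a1, Nr4a2, Nr4a3, Ier3 and Zfp36. Capitals mark the CArG box, the motif bound by SRF, and TGACG, the core of the site bound by CREB, each on either strand. The Egr2 stretch of 120 bases ends at the base before the transcript start and lies at chr10:67537749-67537868 on the plus strand. The Nr4a1 stretch lies at chr15:101266596-101266845 on the plus strand, and the Nr4a2 stretch at chr2:57124004-57124253 on the minus strand, both also ending at the base before the start.
Egr2: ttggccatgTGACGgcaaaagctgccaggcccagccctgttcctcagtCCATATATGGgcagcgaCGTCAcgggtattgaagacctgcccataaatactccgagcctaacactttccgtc
Nr4a1: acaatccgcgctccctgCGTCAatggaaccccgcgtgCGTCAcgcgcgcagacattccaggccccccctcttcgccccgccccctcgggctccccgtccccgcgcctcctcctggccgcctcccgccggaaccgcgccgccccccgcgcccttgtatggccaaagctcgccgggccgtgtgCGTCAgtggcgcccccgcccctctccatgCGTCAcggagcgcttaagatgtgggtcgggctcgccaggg
Nr4a2: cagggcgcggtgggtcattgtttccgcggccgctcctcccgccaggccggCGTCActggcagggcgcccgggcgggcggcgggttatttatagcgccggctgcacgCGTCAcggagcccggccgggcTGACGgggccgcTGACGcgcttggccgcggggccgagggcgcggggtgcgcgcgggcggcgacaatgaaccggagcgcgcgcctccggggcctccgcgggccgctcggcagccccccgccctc
The Egr2 stretch holds 1 CArG box, 72 bases before the start, and TGACG at 111 and 55 bases before it. Not all Egr2 starts were alike. The window before chr10:67535499 held no match to any motif searched, and that before chr10:67537566 held a CArG box but no TGACG. Neither of these starts matched a protein-coding transcript start in the GENCODE M21 annotation. The other Egr2 starts did, and the window before each held a CArG box and 2 TGACG matches. The starts used for Nr4a1 and Nr4a2 also matched, and those for Nr4a3, Ier3 and Zfp36 did not. In the 250 bases before the start, Nr4a1, Nr4a2 and Nr4a3 each held 4 TGACG matches, and no CArG box was found in those 3 windows. Zfp36 held 1 CArG box and no TGACG. The Egr site GCGNGGGCG was found once each before Nr4a1, Nr4a2 and Zfp36. Neither the full CREB site TGACGTCA, which contains TGACG, nor the Nr4a site AAAGGTCA was found in the windows of these 6 genes, and Ier3 had no match to any motif searched. Of all 32851 promoter windows of that length, 1.47% held a CArG box, 17.8% TGACG, 4.70% GCGNGGGCG, 1.55% TGACGTCA and 1.34% AAAGGTCA on either strand. A match describes letters only, and Nr4a1, which fell, carries as many TGACG matches as Nr4a2 and Nr4a3, which did not pass.

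The Nr4a genes encode orphan nuclear receptors that act without a known classical ligand, so that their activity depends on their level. Nr4a1, also called Nur77, is known for roles in T cell receptor signalling and in macrophages. It stood at 32.3, 30.1, 54.6 and 37.6 CPM in naphthalene libraries 1 to 4, against 47.4, 52.2, 91.5 and 70.2 CPM in controls 1 to 4. The groups overlapped, since naphthalene 3 was above controls 1 and 2. Means were 38.7 ± 11.1 CPM after naphthalene and 65.3 ± 19.99 CPM in controls (SD, n = 4 each), with a log2 fold change of -0.76 (SE 0.29, edgeR adjusted p = 0.0288). The call was lost without control 3 (log2 fold change -0.56, edgeR adjusted p = 0.0745), without control 4 (-0.73, adjusted p = 0.0725) and without naphthalene 2 (-0.66, adjusted p = 0.0850). The T cell, B cell, ciliated cell and club cell markers that fell, given beside Egr3, moved in the same direction. Of 3 monocyte markers Csf1r fell, to 77.7 ± 7.62 CPM after naphthalene, against 141 ± 5.80 CPM in controls (SD, n = 4 each), and the other 2 did not pass. The 2 alveolar macrophage markers that could be tested did not pass. The part of these cell types in the Nr4a1 result was not tested.

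Nr4a2, needed for midbrain dopamine neurons, and Nr4a3, a relative with overlapping roles, had lower means after naphthalene that did not pass. Nr4a2 stood at 6.90, 7.63, 12.9 and 8.06 CPM in naphthalene libraries 1 to 4, against 8.96, 7.84, 14.0 and 14.0 CPM in controls 1 to 4 (log2 fold change -0.34, SE 0.29, edgeR adjusted p = 0.322). Nr4a3 stood at 8.63, 6.65, 12.3 and 13.6 CPM in naphthalene libraries 1 to 4, against 8.79, 7.98, 19.4 and 21.1 CPM in controls 1 to 4 (log2 fold change -0.49, SE 0.43, edgeR adjusted p = 0.299). For all 3 Nr4a genes, controls 3 and 4 were above controls 1 and 2. The same held for Egr1, Egr2, Egr3, Ier2 and Zfp36, but not for Arc or Ier3. Nr4a3 was among the most variable genes in controls, with 1.45% of tested genes having a larger SD of log2 CPM.

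Ier2, Ier3 and Zfp36 did not pass, and their groups overlapped. Ier2, a nuclear protein of the early response, averaged 26.0 ± 6.98 CPM after naphthalene and 29.96 ± 4.196 CPM in controls (SD, n = 4 each). Its lowest library was naphthalene 4 at 17.4 CPM, and the other 7 libraries lay between 25.4 and 34.4 CPM. Its log2 fold change was -0.20 (SE 0.23, edgeR adjusted p = 0.437). Ier3, a stress-induced regulator of cell survival and NF-kB signalling, stood at 84.8, 83.6, 101.6 and 67.5 CPM in naphthalene libraries 1 to 4, against 77.4, 85.3, 97.2 and 81.4 CPM in controls 1 to 4. Its log2 fold change was -0.016 (SE 0.14, edgeR adjusted p = 0.936). Zfp36 encodes tristetraprolin, which binds AU-rich elements in mRNAs and brings about their decay. It stood at 53.9, 56.7, 60.7 and 46.2 CPM in naphthalene libraries 1 to 4, against 39.8, 46.7, 68.1 and 52.1 CPM in controls 1 to 4. Control 3 was the highest library, controls 1 and 2 were among the 3 lowest, and the log2 fold change was 0.074 (SE 0.18, edgeR adjusted p = 0.754). An antisense gene model overlaps Zfp36 in GENCODE M21, and the strand setting of the counting is not given in the sources used here.

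**Figure D2:**
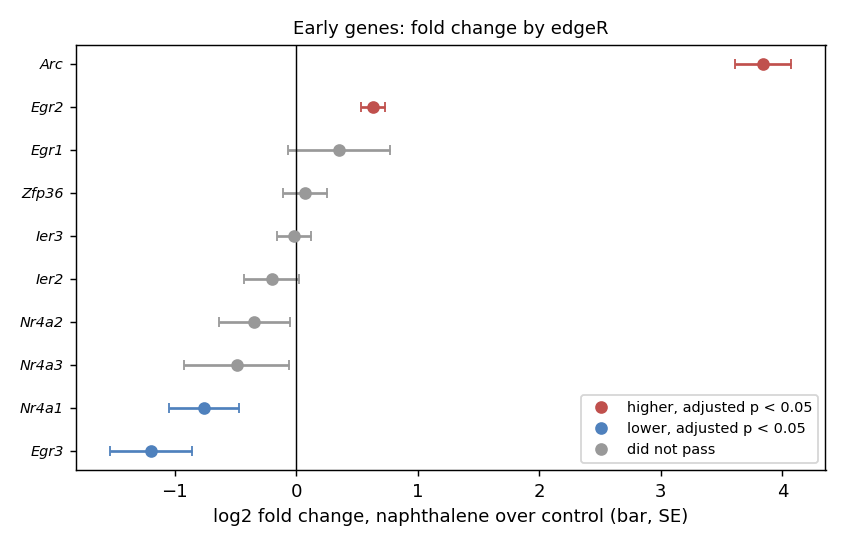
Points show the log2 fold change of each early gene, naphthalene over control, with its SE as a bar; red marks genes past the test as higher, blue as lower and grey those that did not pass. Arc at 3.84 stands far to the right of the other 9 genes, which lie between -1.19 and 0.63.

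Set per kilobase of exon, so that levels can be compared between genes, Ier3 was the most abundant in both groups. It stood at 74.6 ± 12.3 CPM per kilobase after naphthalene and 75.4 ± 7.56 in controls (SD, n = 4 each), above the range of every other member. In controls Ier2, Nr4a1, Zfp36 and Egr1 followed, at 19.7, 18.6, 14.9 and 10.99 CPM per kilobase, and neighbours in that order overlapped in range. Arc came last in controls, at 0.287 ± 0.0644 CPM per kilobase, below the range of Egr3, the next gene. After naphthalene Arc had the sixth highest mean, at 4.197 ± 1.10 CPM per kilobase, and its range overlapped those of Egr2 at 3.73 ± 0.382 and Nr4a2 at 2.19 ± 0.674. Egr3 came last after naphthalene, at 0.579 ± 0.178 CPM per kilobase. Nr4a1 had the fifth highest mean after naphthalene and the third highest in controls, and stood after naphthalene at 11.02 ± 3.17 CPM per kilobase, with a range that overlapped that of Egr1.

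Whether relatives responded differently was tested with the ratio of 2 genes within each library, over 7 pairs. Egr1 to Egr3 had a log2 ratio of 4.56 ± 0.215 after naphthalene and 2.96 ± 0.519 in controls (SD, n = 4 each). Egr2 to Egr3 had a log2 ratio of 2.29 ± 0.526 after naphthalene and 0.524 ± 0.405 in controls. Both ratios were higher in all 4 naphthalene libraries than in any control, by 1.598 (SE 0.28) and 1.77 (SE 0.33) on the log2 scale. The ratio of Nr4a1 to Nr4a2 was lower in all 4 naphthalene libraries than in any control, by a difference of -0.42 (SE 0.12). Each of these 3 pairs reached p = 0.0286 in an exact 2-sided permutation test, the smallest that 4 against 4 allows. Adjusted over the 7 pairs the value was 0.0667, and none passed. With only 3 of 7 pairs at the smallest p, none could pass after this adjustment, however large its difference. The test therefore cannot decide whether these 3 ratios changed. The other 4 pairs overlapped between groups, with differences of -0.17 (SE 0.38) for Egr1 to Egr2, -0.36 (SE 0.26) for Nr4a1 to Nr4a3, 0.063 (SE 0.26) for Nr4a2 to Nr4a3 and -0.21 (SE 0.12) for Ier2 to Ier3 on the log2 scale (adjusted exact p 0.2 to 0.8).

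**Figure D3:**
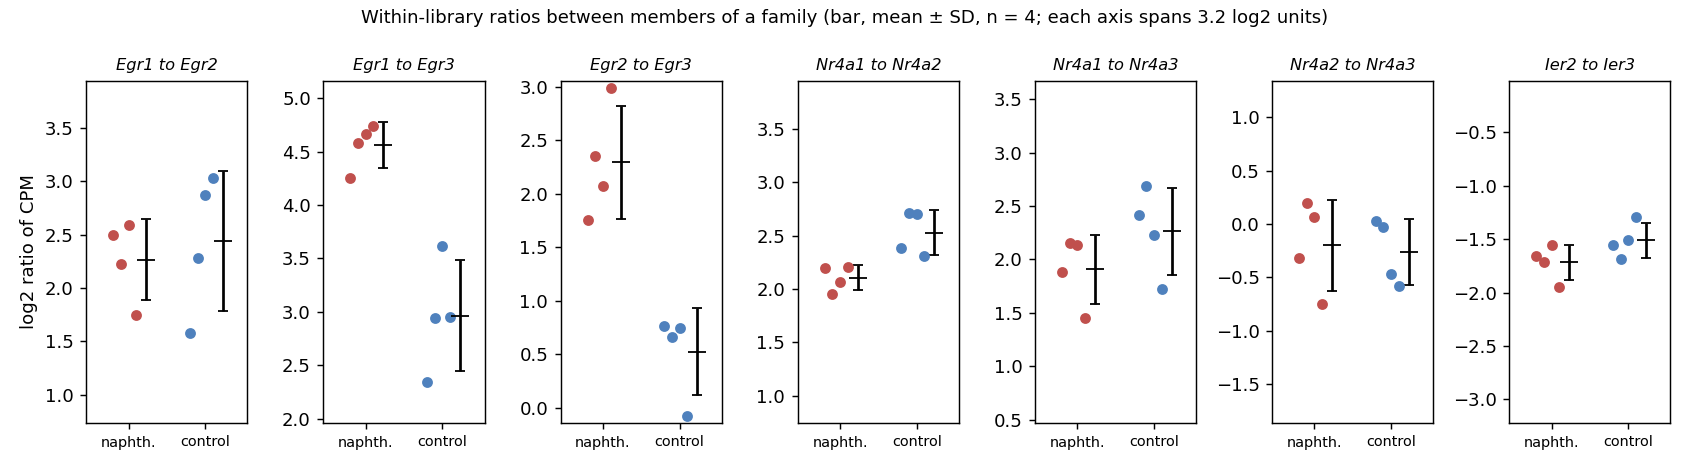
Each panel shows the log2 ratio of CPM between 2 members of a family in each library, naphthalene in red on the left and control in blue on the right, with the mean ± SD, and each vertical axis spans the same range of log2 units. Points of the 2 groups lie apart for Egr1 to Egr3, Egr2 to Egr3 and Nr4a1 to Nr4a2, and overlap in the other 4 panels.

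In a list of other early response genes, 16 of those tested rose. Of 30 listed, 26 were tested, 3 lie on chromosome 1 and were listed at 0, and 1 was too low. Of the 26 tested, 10 did not pass, with a median log2 fold change of 0.61, beside 14.1% higher and a median of 0.01 over all tested genes. Gadd45g and Gadd45b, which respond to growth arrest and DNA damage, rose to 37.9 ± 9.15 and 93.7 ± 13.6 CPM after naphthalene, against 9.72 ± 1.28 and 52.1 ± 1.37 CPM in controls (SD, n = 4 each). Myc, a driver of cell growth, rose to 16.2 ± 1.93 CPM after naphthalene, against 4.30 ± 1.03 CPM in controls. Maff, a small Maf factor, Socs3, an inhibitor of cytokine signalling, and the kinase gene Plk3 had log2 fold changes of 1.41, 1.18 and 1.15. The call for Klf4, which also rose, was lost without naphthalene 2, control 1 or control 4 (edgeR adjusted p 0.0501 to 0.0564). Fos, Fosb, Jun and Dusp1 did not pass, with log2 fold changes of -0.27, 0.20, 0.22 and 0.26. Of the other Fos and Jun genes of the list, Junb passed as higher (log2 fold change 0.77, edgeR adjusted p = 0.0106), though its groups overlapped. Fosl1 also passed as higher, with 0 to 2 reads in each control library. Dusp1 stood at 144.5 to 190.3 CPM after naphthalene and at 225.6 CPM in control 3, with 101.2 to 123.9 CPM in the other controls. Without control 3, Dusp1 passed as higher (log2 fold change 0.58, edgeR adjusted p = 0.00663). Fos, Fosb, Jun, Dusp1, Junb, Fosl1 and Klf4 were chosen after their values were seen.

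**Figure D4:**
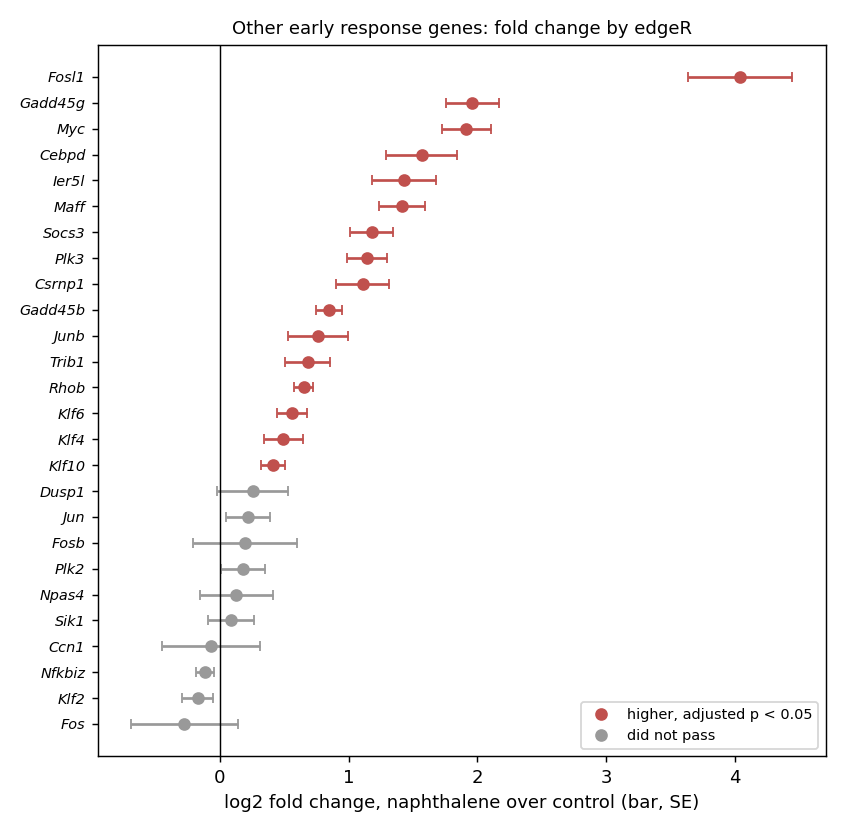
Points show the log2 fold change, naphthalene over control, of the 26 tested genes of the list, with SE bars; red genes passed as higher and grey genes did not pass. The 16 red genes include Gadd45g at 1.96 and Myc at 1.91, and the topmost gene, Fosl1, had 0 to 2 reads in each control library and 9 to 25 after naphthalene.

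Of 16 listed regulators of early gene transcription 3 lie on chromosome 1, and of the 13 tested 2 fell and 11 did not pass, beside 14.6% lower over all tested genes, with a median log2 fold change of -0.12. That share is near the one over all tested genes and is not read as a result about the list. Elk3, an ETS partner of SRF, fell to 82.3 ± 18.2 CPM after naphthalene, against 118 ± 3.62 CPM in controls (SD, n = 4 each; edgeR adjusted p = 0.0155). The kinase gene Mapk3 fell by 0.46 on the log2 scale, and its call was lost without any 1 of 6 libraries, naphthalene 2, 3 or 4 or control 1, 2 or 4 (edgeR adjusted p 0.0757 to 0.115). Without naphthalene 1, 4 of these genes fell, without naphthalene 1 and control 3 together 4 fell and 2 rose, and by voom with quality weights 5 fell. Nab2, a corepressor of Egr proteins, was at 17.8 ± 2.94 CPM after naphthalene and 21.1 ± 1.82 CPM in controls and did not pass (edgeR adjusted p = 0.202). Without naphthalene 1 it passed as lower (log2 fold change -0.35, edgeR adjusted p = 0.0466). Rxra and Rxrb, dimer partners of Nr4a1 and Nr4a2, did not pass (log2 fold changes -0.20 and 0.079).

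Genes reported as Egr1 targets went both ways. Of 9 tested, 3 rose, 2 fell and 4 did not pass, beside 14.1% higher and 14.6% lower over all tested genes, with a median log2 fold change of 0.056. F3, the tissue factor that starts coagulation, rose to 171 ± 102 CPM after naphthalene, against 38.2 ± 4.67 CPM in controls (SD, n = 4 each; log2 fold change 2.16, edgeR adjusted p = 0.000937). The adhesion molecule gene Icam1 rose with a log2 fold change of 0.57. The growth factor genes Pdgfa and Pdgfb fell, with log2 fold changes of -0.59 and -0.70. The Pdgfb call was lost without any 1 of the same 6 libraries that decided Mapk3 (edgeR adjusted p 0.0515 to 0.113).

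For Zfp36, 2 paralogs and 7 mRNAs known to be bound by its protein could be tested. Zfp36l1, a relative with the same kind of RNA-binding domain, fell to 129 ± 4.86 CPM after naphthalene, against 163 ± 14.2 CPM in controls (SD, n = 4 each; log2 fold change -0.33, edgeR adjusted p = 0.0151). Its call was lost without naphthalene 2 (edgeR adjusted p = 0.0575). Zfp36l2 did not pass. Of the 7 AU-rich mRNAs 3 rose and 4 did not pass, beside 14.1% higher over all tested genes, with a median log2 fold change of 0.57 beside 0.01. The chemokine gene Ccl2 rose to 5.83 ± 2.63 CPM after naphthalene, against 0.542 ± 0.199 CPM in controls. The log2 fold changes of Il6 and Cxcl1, which also rose, were 2.95 and 2.94. In controls Ccl2, Il6 and Cxcl1 rested on 3 to 10, 5 to 10 and 1 to 6 reads per library, so the sizes of their folds are uncertain. Cxcl1 had 61 reads in naphthalene 1 and 13 to 18 in the other naphthalene libraries. Without control 3, Zfp36l2 (log2 fold change 0.27, edgeR adjusted p = 0.0462) and the cytokine gene Il1b (1.054, adjusted p = 0.00296) also passed as higher.

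Heat shock genes, which respond to tissue handling as well as to stress, moved with the groups. All 7 rose, beside 14.1% of all tested genes, with a median log2 fold change of 1.01. The call for Hsp90aa1 was lost without naphthalene 3, control 1 or control 4 (edgeR adjusted p 0.0540 to 0.0584). Hspa1a stood at 205.5, 156.2, 121.4 and 167.7 CPM in naphthalene libraries 1 to 4, against 2.78, 10.4, 59.3 and 11.6 CPM in controls 1 to 4. Control 3 was well above the other controls but below every naphthalene library. Dnajb1 rose to 94.2 ± 7.97 CPM after naphthalene, against 46.7 ± 12.5 CPM in controls (SD, n = 4 each; edgeR adjusted p = 0.000951). Control 3 was also the highest control for Egr2, Nr4a1, Ier2, Ier3 and Zfp36. For Egr1, Egr3, Nr4a2 and Nr4a3 the highest was control 4, and for Arc it was control 2. The part of handling in these results was not tested.

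For each early gene, the 3 tested genes with the nearest centred log2 CPM profile over the 8 libraries were found by root mean square difference. For Arc they were Muc3 (0.18 on the log2 scale) and Fgf23 (0.25), both listed at 0 in controls, and Timp1 (0.25), which stood at 43.2 ± 6.88 CPM after naphthalene and 3.88 ± 0.893 CPM in controls. For Egr2 they were Hras (0.043), Chmp2a (0.053) and Psmb2 (0.057). For Egr3 they were Bnipl (0.21), Parm1 (0.23) and Prom2 (0.25). For Nr4a1 they were Gmnn, Slc6a20a and Zfp951 (0.19 to 0.20). For Egr1 they were Slco1c1, Itga2b and Tlcd2 (0.25 to 0.27), of which Itga2b marks platelets and megakaryocytes. For Nr4a2 they were Akr1c21, Hectd2 and Zfand4 (0.20 to 0.21), and for Nr4a3 Slc3a1, Kcng2 and Cct6b (0.24 to 0.28). Nearest to Ier2 were Clk2, Ppp1r3b and Pars2 (0.13 to 0.15), to Ier3 Ptprj, Ccdc174 and Col12a1 (0.080 to 0.081), and to Zfp36 Trpt1, Bloc1s4 and Trnp1 (0.10 to 0.12). The summed level of 3 platelet markers, Itga2b among them, was 25.1 to 58.8 CPM after naphthalene and 16.1 to 35.7 CPM in controls. None of the 3 passed, with log2 fold changes of 0.91 for Pf4, 0.55 for Itga2b and -0.54 for Ppbp. The part of these markers in the Egr1 values was not tested.

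Calls for Arc, Egr2 and Egr3 held in all 16 alternative settings, in which the log2 fold change of Arc ranged from 3.57 to 3.97, that of Egr2 from 0.58 to 0.74 and that of Egr3 from -1.36 to -0.89. Nr4a1 passed in 12 of 16. The other 6 genes passed in 0 of 16 by edgeR, DESeq2 or voom, and 0 of them had an unadjusted p under 0.05 in the edgeR test on all libraries.

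**Figure D5:**
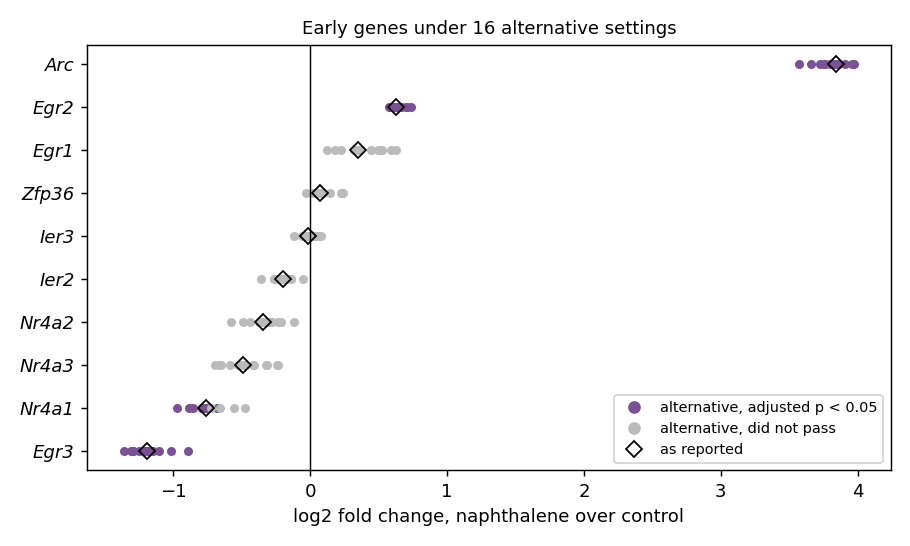
For each early gene, circles give the log2 fold change, naphthalene over control, under 16 alternative settings, purple where the adjusted p was under 0.05 and grey where not, and the open diamond gives the value as reported. The circles of Arc, Egr2 and Egr3 are all purple, those of Nr4a1 are purple in 12 of 16, and those of the other 6 genes are grey.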

How the data were processed

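Per the labels' protocols, stranded libraries were made from DNase-treated total RNA of 8 lung lobes. The authors deposited raw whole-number counts per gene symbol. The build mm39 and the tools HISAT2 2.2.1, featureCounts 2.0.6, Trim Galore 0.6.7 and edgeR 4.2.1 appear per the submitters' processing notes, with no role or order. Annotation, strand setting and treatment of multiply mapped reads were not given in the sources used here. Columns were matched to mice by library name, with 0 columns of other samples. Libraries came from separate mice, and none of the 12 pairs within groups agreed within sampling noise (chi-square over degrees of freedom 5.06 to 40.5).

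The test was edgeR 4.0.16 in R 4.3.3 (TMM scaling, filterByExpr with minimum count 10 and minimum total 15, quasi-likelihood test, group as the only term), with Benjamini-Hochberg adjustment over 14192 genes. Standard errors come from log2 CPM with a prior count of 2, as errors of the difference between means. A floor of 3 counts in a library corresponds to 0.179 to 0.275 CPM, for counting error only. Lengths and overlaps came from GENCODE M21, and chromosomes and promoters from RefSeq, both on GRCm38 and not on the build of the counts. Of 22244 symbols, 20467 matched RefSeq directly and 104 through a synonym. In simulated counts for naphthalene against control, with 14082 genes tested, 84.0% of 50 genes with a log2 change of 1 were recovered. At -1, 87.8% of 49 were recovered, 98.0% of 50 at 2 and 100% of 49 at -2, with 8 false calls. In that simulation 13884 genes had no change, whereas 28.7% of tested genes passed in the data. Counts were drawn independently, with no library set apart. These shares are therefore not the recovery of the real comparison.

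The 10 genes, the lists and the tests were chosen with earlier results of these data known. Named genes were the 10 early genes, the list members that passed, by p and at most 6 a list (at most 2 where none passed), and the 3 genes nearest in profile to each early gene; other genes were named after their values were seen. A gene that the rule names is not reported here, though list counts include it. Alternatives were scaling by RLE or upper quartile, testing without a filter or with CPM of at least 1 in 4 libraries, DESeq2 1.42.0, voom with quality weights (limma 3.58.1), the replicate number as a block, each library left out, and control 3 and naphthalene 1 left out together. For the ratios within families they were a prior count of 0.5, each library left out and sign flips within replicate numbers.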

Additional observations from a re-analysis of the deposited data

Results flagged for a closer look

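Among 72 groups of 4 values examined, 5 held a library far from the other 3 of its group, and chance flags about 1 in 20. Egr3 was at 9.17 CPM in control 4, against 4.57 to 5.18 CPM in the other controls. Hspa1a and Hspa1b were at 59.3 and 86.4 CPM in control 3, against 2.78 to 11.6 and 6.19 to 17.3 CPM in the other controls. Pdgfb was low in control 3, at 84.97 CPM against 101.4 to 103.6 CPM. Elk3 was low in control 1, at 112.8 CPM against 119.9 to 120.1 CPM.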

How the results depend on the processing

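With voom and quality weights, 3186 genes were higher and 3317 lower over the whole table, against 2005 and 2070 by edgeR. Of the early genes 2 were higher in every setting, and 2 were lower except without control 3 and naphthalene 1 together, where 1 was, and when single libraries were left out, where 1 to 2 were. The gene that dropped out was Nr4a1 (log2 fold change -0.48 without both libraries, edgeR adjusted p = 0.0982). The cause was not tested. Same-numbered libraries deviated together only in part (correlations -0.093 to 0.29), and not every library correlated best with its own number, so the numbers were not taken as pairing the mice. With the replicate block 2074 genes were higher and 2289 lower, the early genes had the same 4 calls, and the ratios within families had adjusted p of 0.175 to 0.75 by exact sign flips, where 4 pairs allow no p under 0.125 and so no ratio could pass. Without either of control 2 or control 4, Hspa1b did not pass (edgeR adjusted p = 0.0511 and 0.0541). Without naphthalene 1, Klf2 passed as lower. Scaling moved the median log2 fold change of all genes by less than 0.1. Depth limits Arc, with 8 to 15 reads per library in controls, and Egr3, with 16 to 52 reads per library after naphthalene.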
